A study of Mus musculus with 6 samples.

Results

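Heme is built in 8 enzymatic steps, and the genes described here encode enzymes of that pathway and the carrier that feeds it. The 9 genes are Alas1, Alas2, Alad, Uros, Urod, Cpox, Ppox, Fech and Slc25a38, and they were picked by symbol from a table of 16858 genes. All 9 had a line in the table and all 9 passed the filter on low counts, as did 12353 genes in all. The list was made with the genotype difference of these same libraries in view, so the members' values between genotypes are a description. Their calls and intervals were read from the fit over all genes and are no independent evidence of a difference. Liver RNA was sequenced 72 h after 70% partial hepatectomy (PHx), an operation that removes most of the liver and starts its regrowth. The groups were wild-type C57BL/6 mice (Aqp5+/+) and mice without the water channel aquaporin 5 (Aqp5-/-), with 3 libraries each. The operated mice were 3 months old. The study's methods describe them as male, with the deletion made by CRISPR/Cas9 in fertilised eggs, and whether the mice descend from a single founder is not given in the sources used here. Both groups had PHx, and nothing in the sources used here says that each library came from a separate mouse, so the spread between libraries may be partly technical.

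Heme synthesis starts in mitochondria, where 5-aminolevulinate synthase joins glycine and succinyl-CoA. The genome holds a pair of genes for this first and rate-limiting enzyme. Alas1 is used in all tissues and is most active in liver, where heme for the cytochrome P450 enzymes is made and where free heme lowers Alas1, whereas Alas2, on the X chromosome, serves hemoglobin production in erythroid cells and answers to GATA1 and to iron. The middle steps run in the cytosol, and the last 3 run in mitochondria again, where ferrochelatase inserts iron.

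The sequences below are shown because they carry the known difference in control between the first enzymes. They were read from RefSeq promoter windows and from GRCm38, and motifs were searched on both strands in the 250 bases before each annotated start, with windows for 8 of the 9 members. The stretch upstream of Alas2 lies at chrX:150547167-150547374 on the plus strand, and its capitals mark a GATA motif, which reads AGATAA on the other strand. The next stretch lies at chrX:150547369-150547398, and its capitals mark 3 copies of CACCC as read on the other strand, the motif of KLF1 and related factors. The Alas1 stretch lies at chr9:106247906-106247935 on the minus strand, within the annotated gene and upstream of the second of its RefSeq starts. Its capitals mark a palindrome that is the motif of NRF1, a factor that acts on genes for mitochondrial proteins. The last stretch is the iron-responsive element of the Alas2 5' untranslated region, in the first exon at chrX:150547458-150547485, and its capitals mark the loop that iron regulatory proteins bind.
Alas2 upstream: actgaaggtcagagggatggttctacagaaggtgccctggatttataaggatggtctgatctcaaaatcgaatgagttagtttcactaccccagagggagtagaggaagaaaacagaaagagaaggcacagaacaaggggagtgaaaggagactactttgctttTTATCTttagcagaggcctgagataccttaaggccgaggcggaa
Alas2 CACCC stretch: gcggaaggGGGTGGGGTGGGGTGggcgggg
Alas1 NRF1 stretch: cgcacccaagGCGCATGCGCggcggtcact
Alas2 iron-responsive element: ttggttcgtcctCAGTGcagggcaacag

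Among the members with a window, AGATAA was found before Alas2 alone, whereas 9.99% of all 32851 windows hold it. Its first base lies at position -86 from the RefSeq start. At least 3 copies of CACCC were found before Alas2 and Cpox, against 6.92% of all windows. Those of Alas2 lie before the RefSeq start but just inside the annotated gene span. TATAA was found before Alas2 alone, with overlapping matches that start at -208 and -207, against 22.8% of all windows. The NRF1 palindrome, searched with the letters in those capitals, was found before Alas1 alone, against 0.782% of all windows. It lies upstream of the second of the Alas1 starts in RefSeq, at -195, and the window before the first start held no match. The first start lies further upstream, so the palindrome is within the annotated gene. The iron-responsive pattern, a loop of CAGTG after an unpaired C and a stem of 5 pairs, was found in the 5' untranslated region of Alas2 and of no other member, and in 31 of 20580 genes searched, Fth1 and Slc40a1 among them. These matches describe letters in the sequence and do not show that a factor bound there in these livers.

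Library totals ran from 7130831 to 15550006 counts, lowest in Aqp5+/+ replicate 2. That library and Aqp5-/- replicate 3 stood somewhat apart, with mean correlations to the other libraries of 0.891 and 0.888 on the log2 scale, against 0.93 to 0.932 for the rest. The quasi-likelihood test of edgeR called 41 of 12353 genes at an adjusted p under 0.05, which is 0.332%, with 22 lower (0.178%) and 19 higher (0.154%) in Aqp5-/- mice. The groups did not overlap for 14.7% of genes, 7.8% lower and 6.93% higher. Aqp5 itself had no line in the table, so its level gives no check of the labels. Hepatocyte markers were abundant as a sum in all libraries, with summed levels of 72160 to 116600 CPM (counts set to a common library total after TMM scaling, a correction for differences in RNA makeup) in Aqp5+/+ and 104300 to 110200 CPM in Aqp5-/- mice. The albumin gene Alb was the largest part of that sum in every library, and not every listed marker was abundant. The summed level of 4 Y-linked genes was 287 to 471 CPM in Aqp5+/+ and 0.869 to 1.19 CPM in Aqp5-/- libraries. The Aqp5-/- levels are at odds with the methods, which describe the operated mice as male. Genotype therefore cannot be told apart from Y-linked expression, or from a possible difference in sex, in any comparison below.

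Of the 9 members, 1 was called, Alas2, which was lower in Aqp5-/- mice, beside 0.178% of all genes called lower. DESeq2 and limma also called Alas2 and no other member, where they called 1.94% and 0.364% of all genes. Since the list was made with this contrast known, nothing is read from that count. The groups did not overlap for Alas2 and Fech, both lower in Aqp5-/- mice, beside 7.8% of all tested genes. Nothing is read from that count either. The median log2 fold change of the 9 members was -0.32, and that of all tested genes was 0.01.

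**Figure D1:**
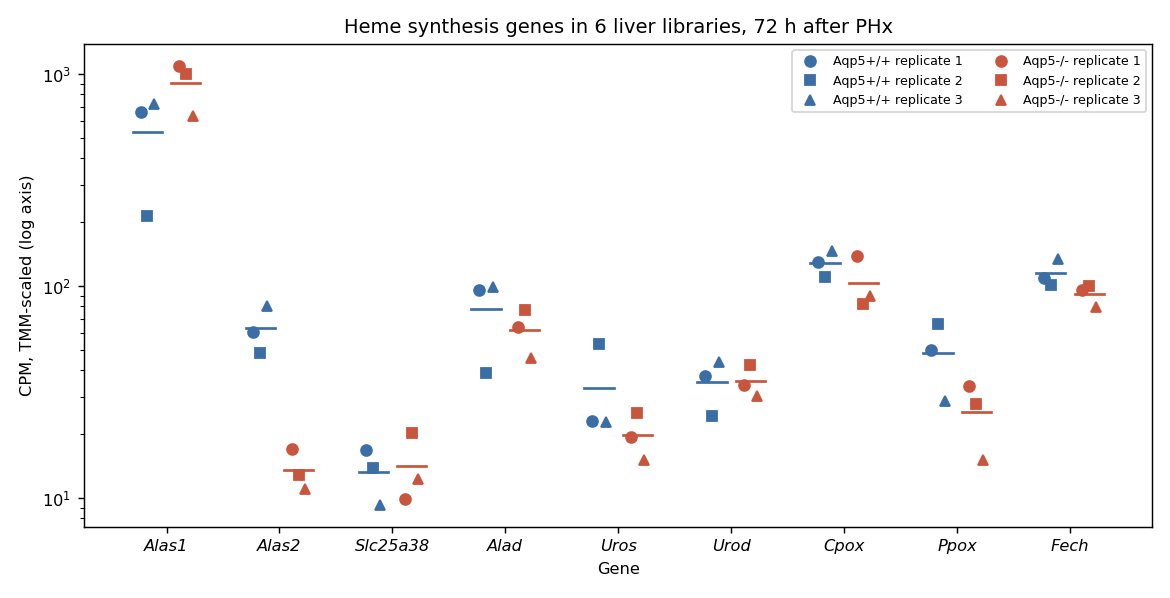
Each symbol is 1 library, with the gene on the x axis and its TMM-scaled CPM on a log axis, blue for Aqp5+/+ and red for Aqp5-/-, and bars mark group means. Alas2 lies at 48.2 to 80.5 CPM in Aqp5+/+ and 11.01 to 17.04 CPM in Aqp5-/- libraries, while Aqp5+/+ replicate 2 lies apart from its group for Alas1, Alad and Uros.

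Alas2 was measured at 60.5, 48.2 and 80.5 CPM in Aqp5+/+ replicates 1 to 3. It was measured at 17.04, 12.8 and 11.01 CPM in Aqp5-/- replicates 1 to 3. All 3 Aqp5-/- libraries were below all 3 Aqp5+/+ libraries, with a wide gap between the groups. The counts behind these levels were 722, 321 and 989 in Aqp5+/+ and 210, 147 and 185 in Aqp5-/- libraries, so counting error was small beside the difference. The log2 fold change was -2.21 (SE 0.28, 95% interval -2.85 to -1.58), a level 4.64-fold lower in Aqp5-/- mice. Leaving out Aqp5+/+ replicate 2, Aqp5-/- replicate 1 or Aqp5-/- replicate 3 kept the call, and it was lost without Aqp5+/+ replicate 1, Aqp5+/+ replicate 3 or Aqp5-/- replicate 2, at log2 fold changes of -2.25, -2.00 and -2.18. In bulk RNA, fewer cells that express Alas2 and less Alas2 RNA per cell cannot be told apart.

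Alas1, the housekeeping first enzyme, gave another picture. It was measured at 664.5, 212.9 and 718.8 CPM in Aqp5+/+ replicates 1 to 3. It was measured at 1091, 1001 and 630.4 CPM in Aqp5-/- replicates 1 to 3. The groups overlapped, since Aqp5-/- replicate 3 was below Aqp5+/+ replicates 1 and 3, and Aqp5+/+ replicate 2 was far below the others of its genotype. The log2 fold change was 0.77 (SE 0.47, 95% interval -0.29 to 1.83), and Alas1 was not called. Without Aqp5+/+ replicate 2 the log2 fold change was 0.39.

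The pair was also compared within each library, where the library size cancels. Per kb of exon, Aqp5+/+ replicates 1 to 3 held 23.4, 58.2 and 28.8 Alas2 reads for every 100 Alas1 reads. Aqp5-/- replicates 1 to 3 held 4.01, 3.28 and 4.49. The ranges were far apart, and the highest Aqp5+/+ value came from the library with little Alas1. The mean ratio was 36.8 ± 18.7 (SD, n = 3) in Aqp5+/+ and 3.93 ± 0.609 (SD, n = 3) in Aqp5-/- mice. On the log2 scale the difference in the ratio was -3.12, which is 8.72-fold lower in Aqp5-/- mice, with SDs of 0.69 and 0.23 in the groups, and it ran from -3.39 to -2.74 when each library was left out in turn.

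**Figure D2:**
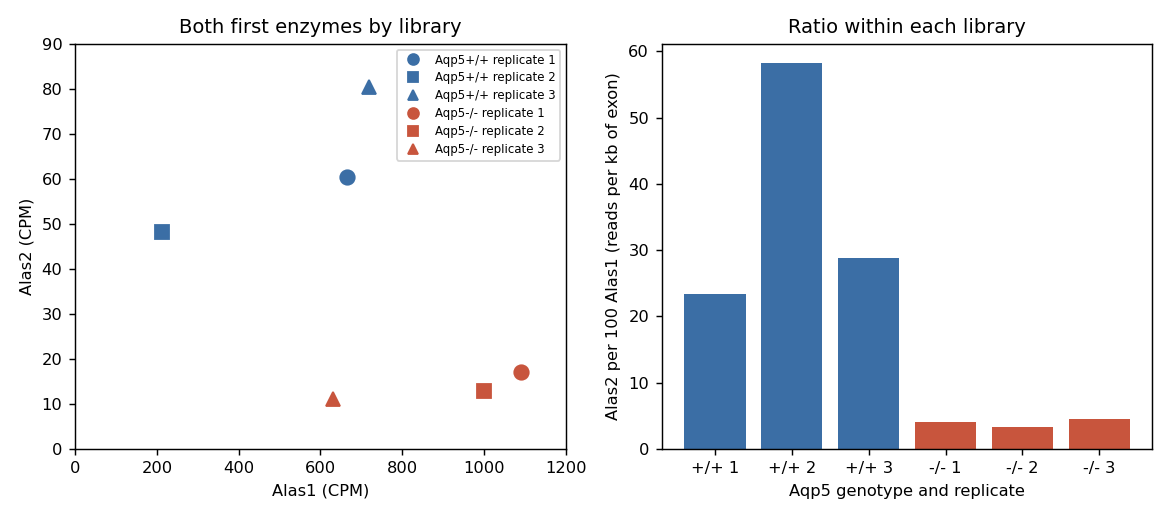
The left panel plots Alas2 against Alas1 in CPM for each of the 6 libraries, and the right panel plots Alas2 reads per 100 Alas1 reads, both per kb of exon, as 1 bar per library. The ratio is 23.4 to 58.2 in Aqp5+/+ (blue) and 3.28 to 4.49 in Aqp5-/- libraries (red).

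As a share of the counts of both genes, Alas2 made up 8.35%, 18.5% and 10.1% in Aqp5+/+ and 1.54%, 1.26% and 1.72% in Aqp5-/- libraries. Alas1 was thus the more abundant of the pair in every library of both genotypes. The size of the ratio depends on the length assigned to each gene, because all annotated exons of Alas1 are 2.57 times as long as those of Alas2, and the principal transcripts 1.67 times. With principal transcripts the ratios per 100 Alas1 reads were 15.2, 37.8 and 18.7 in Aqp5+/+ and 2.61, 2.13 and 2.91 in Aqp5-/- libraries, and the log2 difference between genotypes does not depend on length.

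Slc25a38, the mitochondrial carrier that brings glycine to the first enzyme, was the least abundant member per kb. It was measured at 16.9, 13.8 and 9.28 CPM in Aqp5+/+ and 9.90, 20.3 and 12.3 CPM in Aqp5-/- libraries. The groups overlapped, and the log2 fold change was 0.09, with a sign that turned to -0.12 without Aqp5+/+ replicate 3 and to -0.27 without Aqp5-/- replicate 2.

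The cytosolic enzymes follow. Alad, which joins 5-aminolevulinate molecules into porphobilinogen, was measured at 96.1, 38.7 and 98.5 CPM in Aqp5+/+ and 63.9, 76.7 and 45.7 CPM in Aqp5-/- libraries. Uros, which closes the porphyrin ring, was measured at 23.1, 53.3 and 22.9 CPM in Aqp5+/+ and 19.5, 25.04 and 15.2 CPM in Aqp5-/- libraries. In both genes the groups overlapped and Aqp5+/+ replicate 2 was the odd library, low for Alad and high for Uros. Their log2 fold changes were -0.33 and -0.73, and without Aqp5+/+ replicate 2 they were -0.65 and -0.21. Urod, which removes carboxyl groups from the ring, was measured at 37.7, 24.5 and 43.9 CPM in Aqp5+/+ and 34.2, 42.5 and 30.4 CPM in Aqp5-/- libraries. Its log2 fold change was 0.01 (95% interval -0.60 to 0.62), with overlapping groups and a value of -0.20 without Aqp5+/+ replicate 2.

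The mitochondrial enzymes Cpox, Ppox and Fech complete the pathway. Cpox, the first of them, was measured at 129, 111 and 146 CPM in Aqp5+/+ and 138, 82.5 and 89.8 CPM in Aqp5-/- libraries, with a log2 fold change of -0.32. Ppox, which oxidises the ring to protoporphyrin, was measured at 49.96, 66.2 and 28.6 CPM in Aqp5+/+ and 33.7, 27.8 and 15.2 CPM in Aqp5-/- libraries. For Cpox and for Ppox 1 Aqp5-/- library lay within the Aqp5+/+ range. Ppox had a log2 fold change of -0.92 (SE 0.38, 95% interval -1.78 to -0.05) and was not called. Fech, the ferrochelatase, was measured at 109, 101 and 134 CPM in Aqp5+/+ and 95.5, 100.1 and 79.8 CPM in Aqp5-/- libraries. Its groups did not overlap, but Aqp5+/+ replicate 2 and Aqp5-/- replicate 2 were nearly level, and the log2 fold change was -0.32 (SE 0.22, 95% interval -0.82 to 0.17).

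**Figure D3:**
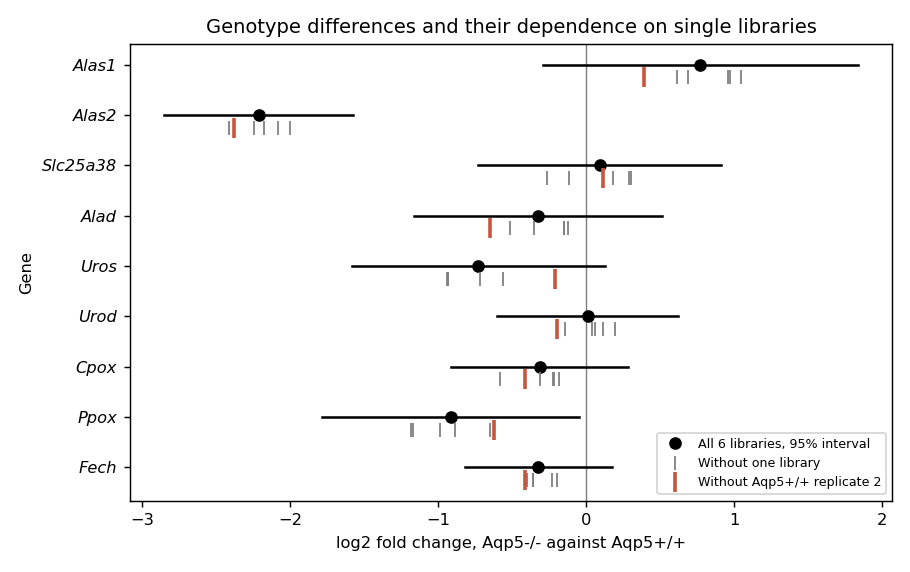
Black points are log2 fold changes (x axis, Aqp5-/- against Aqp5+/+) of the 9 genes (y axis) with 95% intervals, and ticks below them are the values with 1 library left out, red for Aqp5+/+ replicate 2. Alas2 at -2.21 lies apart from the other members, and leaving out Aqp5+/+ replicate 2 moves Alas1 to 0.39 and Uros to -0.21.

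Aqp5+/+ replicate 2 touched most members. Against the mean of the other Aqp5+/+ libraries it was 3.24-fold lower in Alas1, 2.5-fold lower in Alad, 1.66-fold lower in Urod and 1.45-fold lower in Alas2. It was 2.31-fold higher in Uros and 1.75-fold higher in Ppox. Of all tested genes, 20.7% deviated in that library by more than 1 on the log2 scale. Around their group means, Alas1 varied together with Alad (r = 0.977) and Urod (r = 0.915) over the 6 libraries, and against Uros (r = -0.673), and that library carried the largest deviations.

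Compared per kb of exon over all 6 libraries, Alas1 was the most abundant member at 116.6 CPM per kb, above 97.0% of tested genes. Alad followed at 37.4, Cpox at 17.4, Alas2 at 15.96 and Urod at 13.7 CPM per kb. Ppox at 8.17, Fech at 7.47, Uros at 7.41 and Slc25a38 at 5.01 CPM per kb closed the order. Alas1 exceeded Alad, and Alad exceeded Cpox, in 6 of 6 libraries, although the ranges of these neighbours over libraries overlapped, as did those of every other pair of neighbours. Alas2 exceeded Urod in each Aqp5+/+ library, at 25.2, 20.1 and 33.5 CPM per kb for Alas2, and was below Urod at 7.09, 5.32 and 4.58 CPM per kb in the Aqp5-/- libraries. With principal transcript lengths Alas2 moved from place 4 to place 6 of the order.

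Because Alas2 is an erythroid gene, other erythroid genes were read in the same libraries. Of 22 erythroid markers listed, 18 were in the table and 8 were tested. Of these, 0 were called by edgeR, against 0.332% of all tested genes. At an unadjusted p under 0.05 there was 1, against 8.77% of all tested genes. Their summed level was 33.2 to 91.4 CPM in Aqp5+/+ and 56.2 to 101 CPM in Aqp5-/- libraries, and the ranges overlapped. The globin genes of mature red cells, summed per kb, were at 98.3, 27.1 and 92.9 in Aqp5+/+ and 60.5, 48.8 and 100.4 in Aqp5-/- libraries. The other erythroid markers summed to 4.6, 3.24 and 6.40 CPM per kb in Aqp5+/+ and 5.04, 4.44 and 5.93 CPM per kb in Aqp5-/- libraries. Neither sum separated the genotypes, and Aqp5+/+ replicate 2 was the lowest of its group in both. Aqp5+/+ replicates 1 and 3 had higher globin sums than Aqp5-/- replicates 1 and 2, and lower ones than Aqp5-/- replicate 3. Bpgm was the largest part of the second sum in every library. It was at 2.66, 1.26 and 3.56 CPM per kb in Aqp5+/+ and 2.80, 3.08 and 4.78 CPM per kb in Aqp5-/- libraries. That sum thus rests in large part on a single gene. Alas2 was thus 5.48, 6.2 and 5.23 times the summed level of the other erythroid markers in Aqp5+/+ libraries and 1.41, 1.2 and 0.772 times in Aqp5-/- libraries, both per kb.

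**Figure D4:**
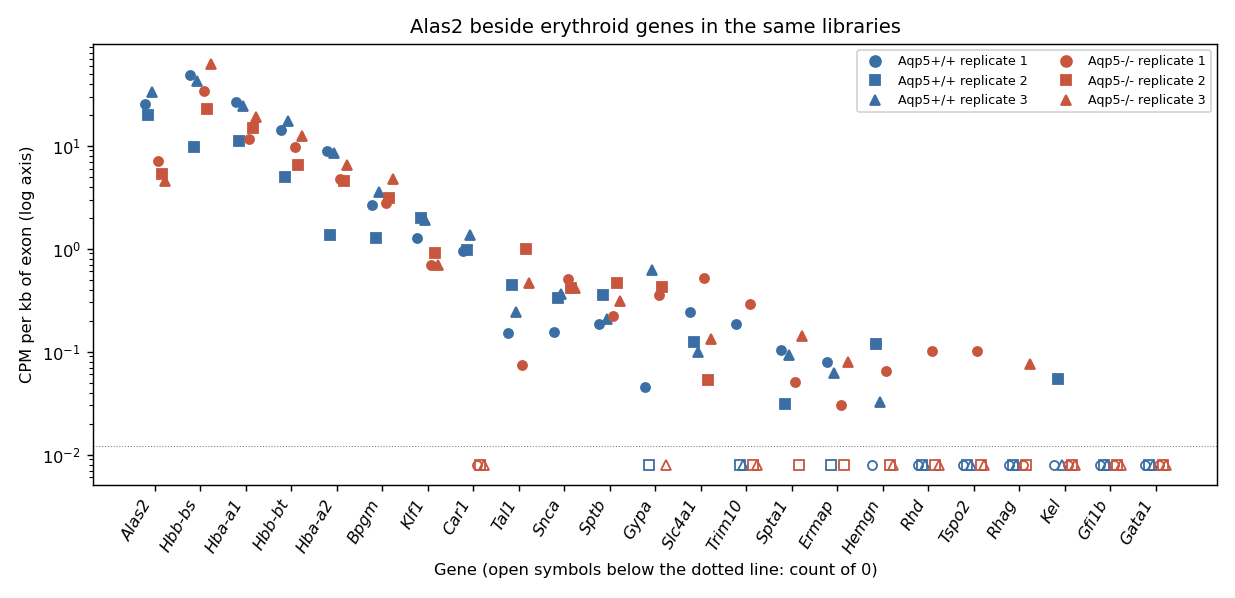
Each symbol is 1 library, with the gene on the x axis and CPM per kb of exon on a log axis, blue for Aqp5+/+ and red for Aqp5-/-, and open symbols below the dotted line are counts of 0. Alas2 separates the genotypes. Car1 and Klf1, at low levels, also lie lower in all Aqp5-/- libraries, and 1 other marker lies higher. The globins overlap, as does their sum, which is not plotted, at 27.1 to 98.3 in Aqp5+/+ and 48.8 to 100.4 in Aqp5-/- libraries.

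Among single erythroid genes, the alpha globin Hba-a1 was measured at 21.5, 9.01 and 19.9 CPM in Aqp5+/+ and 9.49, 12.2 and 15.6 CPM in Aqp5-/- libraries. The beta globin Hbb-bs was measured at 37.4, 7.51 and 32.7 CPM in Aqp5+/+ and 26.4, 17.6 and 47.7 CPM in Aqp5-/- libraries. Both overlapped between genotypes, and near-identical globin copies may share reads. For Hba-a1 the overlap came from Aqp5+/+ replicate 2, since every Aqp5-/- library was below Aqp5+/+ replicates 1 and 3. The same held for every globin read here except Hbb-bs, which was highest in Aqp5-/- replicate 3. Bpgm, which makes 2,3-bisphosphoglycerate in red cells, had a log2 fold change of 0.50 and was not called (edgeR, adjusted p = 0.735). Car1, the carbonic anhydrase of red cells, was at 1.17, 1.20 and 1.71 CPM in Aqp5+/+ and had 0 counts in all Aqp5-/- libraries, where 3 counts would be 0.179 to 0.261 CPM, and it was not called (edgeR, adjusted p = 0.172). Markers of the erythroid membrane were scarce, with 7 of the 18 listed genes under 1 CPM in every library. A level near 0 in this table does not alone show that a cell type is missing, since the macrophage gene Csf1r was under 1 CPM in every library. Whether the removal of ribosomal RNA also took globin RNA is not given in the sources used here.

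The regulators of Alas2 were read from a list of 10 genes, of which 10 were in the table and 7 were tested. Of these, 0 were called by edgeR, against 0.332% of all tested genes. At an unadjusted p under 0.05 there was 1, against 8.77% of all tested genes. Gata1, the factor that switches on erythroid genes, and Gfi1b, a factor of the erythroid and platelet lineages, had 0 counts in all 6 libraries, which allows up to 0.179 to 0.451 CPM by library. Klf1, which binds the CACCC motif, was at 1.93, 3.00 and 2.93 CPM in Aqp5+/+ and 1.05, 1.39 and 1.07 CPM in Aqp5-/- libraries. Its groups did not overlap, but it was not called at these low levels (edgeR, log2 fold change -1.15, adjusted p = 0.576). Tal1, another erythroid factor, overlapped between genotypes. Of the iron regulatory proteins that bind the element printed above, Ireb2 was measured at 246.8, 203.3 and 291.8 CPM in Aqp5+/+ and 155.6, 171.4 and 113.5 CPM in Aqp5-/- libraries. Its groups did not overlap and it was not called (edgeR, log2 fold change -0.75, adjusted p = 0.467). Aco1, the other one, had a log2 fold change of -0.10 and was not called (edgeR, adjusted p = 0.927).

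The regulators of Alas1 were read from a list of 13 genes, of which 12 were tested. Of these, 0 were called by edgeR, against 0.332% of all tested genes. At an unadjusted p under 0.05 there was 1, against 8.77% of all tested genes. That gene was Nr1d1, the clock repressor REV-ERB alpha, at 134, 134.9 and 97.0 CPM in Aqp5+/+ and 69.9, 79.8 and 25.2 CPM in Aqp5-/- libraries (edgeR, log2 fold change -1.07, adjusted p = 0.501). Clpx, a mitochondrial unfoldase that acts on the first enzyme, was at 74.9, 410 and 112 CPM in Aqp5+/+ and 91.9, 93.4 and 83.3 CPM in Aqp5-/- libraries. The single high value was again in Aqp5+/+ replicate 2, the library with the least Alas1. Por, which passes electrons to cytochrome P450 enzymes, and Hnf4a, a hepatocyte factor, had log2 fold changes of 0.59 and 0.31 and were not called.

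Genes that break down, move or use heme were read beside the enzymes. Over these lists and the regulators, 57 genes were listed, 53 were in the table, 49 were tested and 0 were called by edgeR. At an unadjusted p under 0.05 there were 7 (14.3%), 2 higher and 5 lower, against 8.77% of all tested genes, and the groups did not overlap for 9 (18.4%), against 14.7% of all. DESeq2 and the exact test of edgeR each called 3 of them, Hmox1, Abcg2 and Cybb, and limma called 0. The median log2 fold change was 0.02.

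Hmox1, the inducible heme oxygenase that opens the heme ring, was measured at 16.01, 9.91 and 19.4 CPM in Aqp5+/+ replicates 1 to 3. It was measured at 38.0, 27.9 and 165 CPM in Aqp5-/- replicates 1 to 3. All Aqp5-/- libraries were above all Aqp5+/+ libraries, with replicate 3 far above the rest, and the log2 fold change of 2.34 (SE 0.65) was not called (edgeR, adjusted p = 0.333). Hmox2, the constitutive oxygenase, was also highest in that library at 54.0 CPM, against 22.3 to 25.9 CPM in the other libraries. Blvrb, a biliverdin reductase, and Ugt1a1, which conjugates bilirubin, had log2 fold changes of -0.35 and 0.31 and were not called.

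Abcg2, an exporter that carries porphyrins among its substrates, was measured at 139, 112 and 150 CPM in Aqp5+/+ and 58.8, 64.8 and 60.5 CPM in Aqp5-/- libraries. The groups were well apart and each was tight, with a log2 fold change of -1.12, which was not called (edgeR, adjusted p = 0.122). Abcb10, a transporter of the inner mitochondrial membrane needed for heme synthesis in erythroid cells, was measured at 25.3, 41.0 and 38.4 CPM in Aqp5+/+ and 22.1, 24.3 and 16.8 CPM in Aqp5-/- libraries (edgeR, log2 fold change -0.73, adjusted p = 0.482). Slc48a1, which moves heme out of lysosomes, had a log2 fold change of 0.54 and was not called. Hpx and Hp, the plasma proteins that bind free heme and free hemoglobin, were abundant, with Hpx at 2418 to 13560 CPM in Aqp5+/+ and 7835 to 14460 CPM in Aqp5-/- libraries, and overlapped between genotypes.

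Among heme proteins, Cybb, the heme-bearing subunit of the phagocyte oxidase, was measured at 37.3, 26.0 and 38.7 CPM in Aqp5+/+ and 99.6, 53.9 and 147 CPM in Aqp5-/- libraries (edgeR, log2 fold change 1.56, adjusted p = 0.245). Cyb5b, a cytochrome b5 of the mitochondrial outer membrane, had a log2 fold change of -0.97 and was not called (edgeR, adjusted p = 0.564). Tdo2, which degrades tryptophan, was at 778 to 1289 CPM in Aqp5+/+ and 654.6 to 763 CPM in Aqp5-/- libraries, and Cat, the catalase, at 2201 to 2629 and 992 to 1925 CPM. Neither was called, although neither overlapped between genotypes.

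**Figure D5:**
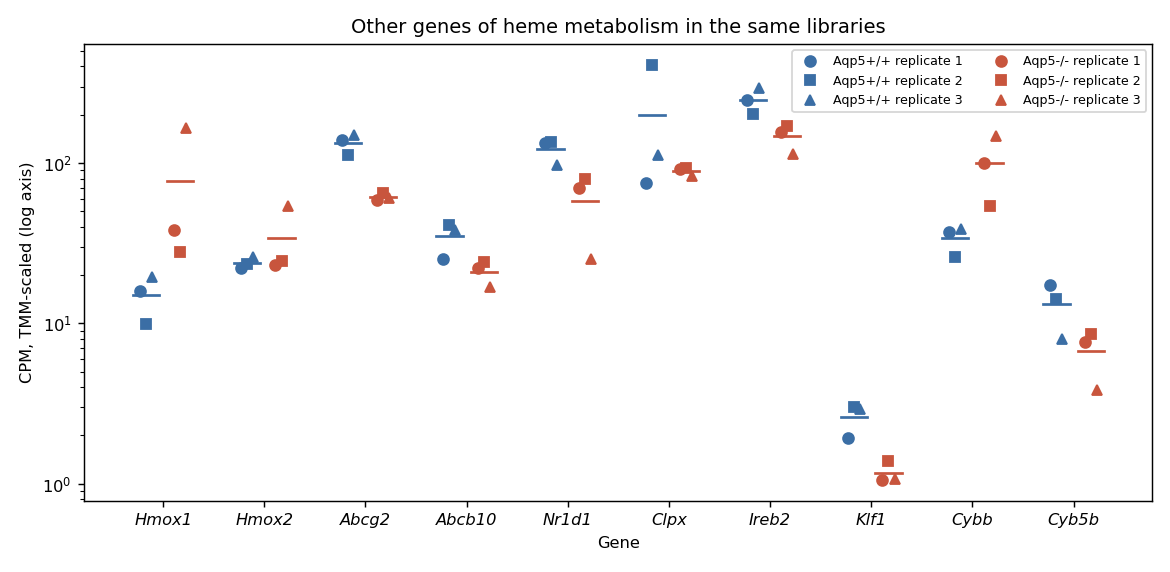
Each symbol is 1 library, with 10 genes of heme breakdown, transport, regulation and use on the x axis and TMM-scaled CPM on a log axis, blue for Aqp5+/+ and red for Aqp5-/-, and bars mark group means. Abcg2 lies at 112 to 150 CPM in Aqp5+/+ and 58.8 to 64.8 CPM in Aqp5-/- libraries, Hmox1 is highest in Aqp5-/- replicate 3, and edgeR called none of the 10.

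Markers of other cell types are given beside Hmox1 and Cybb, which macrophages and neutrophils also express. Kupffer cell and macrophage markers had a median log2 fold change of 1.21, with 0 of 10 called and 9 at an unadjusted p under 0.05, against 8.77% of all tested genes, and summed to 382 to 677 CPM in Aqp5+/+ and 837 to 1694 CPM in Aqp5-/- libraries. Neutrophil markers had a median log2 fold change of 2.21, with 1 of 8 called, Ngp, against 0.332% of all tested genes, and summed to 5.26 to 25.3 CPM in Aqp5+/+ and 31.5 to 122 CPM in Aqp5-/- libraries. Their part in the values of the heme genes was not tested.

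Over the 6 libraries, the genes whose log2 CPM was most like Alas2, of 12138 compared, were Scp2 (r = 0.996), Ncam2 (r = 0.992), Tmem106c, Cep57l1, 1600016N20Rik and Gm5617. Scp2, a sterol carrier protein of peroxisomes, was at 2690, 2120 and 2890 CPM in Aqp5+/+ and 1260, 1060 and 1030 CPM in Aqp5-/- libraries. The genes most like Alas1 were Thoc7 (r = 0.995), Cenpn, Yif1b, Frmd8, Ccne2 and Smc2. Ccne2, a cyclin of S phase entry, was at 8.21, 0.451 and 7.73 CPM in Aqp5+/+ and 15.3, 15.6 and 4.64 CPM in Aqp5-/- libraries, low where Alas1 was low. With 6 points and 12138 genes, high correlations are found by selection, and they describe the pattern only.

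Some members lie over other genes, and the strand setting of the counting is not given in the sources used here. The Alas2 gene lies within an annotated span of Apex2, a DNA repair gene on the opposite strand, and 311 of its 2403 exon bases (12.9%) are also Apex2 exon. Apex2 was measured at 41.0, 56.0 and 45.4 CPM in Aqp5+/+ and 44.8, 39.3 and 32.3 CPM in Aqp5-/- libraries, which overlapped. Ppox shares 791 of 4515 exon bases (17.5%) with B4galt3, Alas1 465 of 6174 (7.53%) with an antisense RNA and Cpox 204 of 6661 (3.06%) with Gpr15. Without strand, reads from such shared bases cannot be told apart.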

How the data were processed

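Liver RNA, depleted of ribosomal RNA, was sequenced from 3 Aqp5+/+ and 3 Aqp5-/- libraries. The deposited values used here are raw read counts of each gene. For these the authors trimmed reads (cutadapt 1.9.3), aligned them to mm10 (HISAT2 2.0.4) and counted them with HTSeq. The counting annotation and strand setting are not given in the sources used here, and the labels and the methods name different library kits. A further block of 6 normalized columns was not used. Identifiers were matched to GENCODE vM21 (16666 of 16858 genes) for lengths and positions.

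Genes were kept by filterByExpr (minimum count 10, minimum total 15), scaled by TMM and compared with the quasi-likelihood test of edgeR 4.0.16 in R 4.3.3, 2-sided, with Benjamini-Hochberg adjustment over 12353 genes without covariates, and a called gene is one with an adjusted p under 0.05. Members and lists were chosen with earlier results of these data known. The text names every member, and of each pathway list and the erythroid list the called genes, the 3 with the smallest p and the 2 with the highest level per kb, plus the 6 genes most correlated with Alas1 and with Alas2 among tested genes of at least 1 CPM. Gata1, Gfi1b, Csf1r, Ngp, Alb, Apex2, the Y-linked genes and the genes that share bases with members were added after their values were seen. On simulated data the test called 83.7% of the genes given a 4-fold change and 18% of those given a 2-fold change. The simulated spread followed the trend over all genes and held no outlying library, so these shares may not hold for these libraries. Alternatives were DESeq2 1.42.0, the exact test, limma 3.58.1, other scalings and filters, the replicate number as a block, and each library left out. One further gene of the pathway is not reported here.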

Additional observations from a re-analysis of the deposited data

How the results depend on the processing

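The number of genes called, 41, rose to 240 with DESeq2 and to 223 with the exact test of edgeR, and ran from 4 to 45 when each library was left out in turn, lowest without Aqp5+/+ replicate 1 or Aqp5-/- replicate 2. Of the other heme genes, 0 were called, against 3 with DESeq2 and 3 with the exact test. Alas2 kept its direction throughout, at -2.41 to -2.00 when each library was left out, called in 3 of 6. With the replicate number as a block Alas2 was at -2.20 and no longer called. The sources used here do not say whether the numbers pair the samples. Around their group means, same-numbered libraries of the genotypes correlated at -0.06, 0.23 and 0.15. Libraries with different numbers correlated at -0.24 to 0.09. These few values cannot decide whether the samples are paired, so the fit with the block is not set aside. Alas1 ran from 0.39 to 1.05 and was called in 0 of 6. Urod ran from -0.20 to 0.19 when each library was left out, and turned to -0.20 without Aqp5+/+ replicate 2 and to -0.14 without Aqp5-/- replicate 2. Slc25a38 ran from -0.27 to 0.30, and turned to -0.12 without Aqp5+/+ replicate 3 and to -0.27 without Aqp5-/- replicate 2. The other 94 of 98 alternatives for the 7 remaining members kept direction and call. The ratio with principal transcript lengths was chosen after seeing the data. The cause of these changes was not tested.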

Other observations

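In the deposited pathway annotation, the porphyrin pathway held 40 genes, chosen here after values were seen, of which 39 were tested and 1 was called, Alas2, against 0.332% of all tested genes. At an unadjusted p under 0.05 there were 10, 2 higher and 8 lower, against 8.77% of all tested genes. Among the lower ones were glucuronosyltransferases, enzymes that conjugate steroids and drugs. Ugt2b38 was measured at 41.2, 57.1 and 43.0 CPM in Aqp5+/+ and 26.1, 21.4 and 17.5 CPM in Aqp5-/- libraries (edgeR, log2 fold change -1.12, adjusted p = 0.205). Ugt2b35 was measured at 452, 348 and 306 CPM in Aqp5+/+ and 161, 214 and 114 CPM in Aqp5-/- libraries (edgeR, log2 fold change -1.18, adjusted p = 0.287). In both the groups did not overlap and neither was called, and the members of this family resemble each other, so reads may be shared between them.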
